A study of Mus musculus with 18 samples.

Results

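The comparison described here sets mammary glands of Cip2a-/- mice at the endpoint of a DMBA experiment, with 3 libraries, against glands of untreated Cip2a-/- mice, also with 3 libraries. All 15482 genes that passed a filter on low counts, out of 23337 in the table, were its members. Both groups lack Cip2a and have the strain background C57BL/6Jx129. The endpoint mice had been given 1 mg of DMBA (7,12-dimethylbenz[a]anthracene) in oil by gavage in each of 6 weekly doses, starting at an age of 12 to 14 weeks, and their glands were free of tumour although the animal had been sacrificed for a DMBA-induced tumour in some tissue. The control mice were untreated, so gavage and oil also differ between the groups, and their effect cannot be told apart from that of DMBA. The sources used here do not give the age of the endpoint mice, how long after dosing they were taken or the site of the tumour. Age and tumour burden therefore cannot be told apart from DMBA either. Lymph nodes were left out when the tissue was taken. Cip2a-/- glands from 2 weeks after the last dose (3 libraries), WT endpoint glands (3) and WT untreated glands (3) were used to show where this difference stands apart.

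CIP2A is an inhibitor of the phosphatase PP2A that many tumours express, and in dividing cells it also binds TOPBP1 at broken chromosomes. DMBA binds the aryl hydrocarbon receptor, is turned by cytochrome P450 enzymes into epoxides that form DNA adducts, and is a classical inducer of mammary tumours in rodents. A mammary gland holds ducts of luminal and basal epithelial cells in a bed of white fat, with vessels, fibroblasts and immune cells, and whole-tissue RNA sums over all of them. Fewer cells of a type and less RNA per cell cannot be told apart in such samples.

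Total counts of the 6 libraries lay between 16329067 and 20416505 reads. Cip2a itself, listed as C330027C09Rik (chr16:48994157-49019716, GRCm38), had 0 reads in the endpoint group, which allows up to 0.0529 CPM (3 reads over the group, counting error only), and 2 reads in untreated Cip2a-/- glands, against 202 reads at the endpoint and 86 reads in untreated WT glands. Markers of a mammary gland were present in every library. The epithelial adhesion gene Epcam had 281, 134 and 439 CPM (counts scaled to the size of the library) in endpoint and 84.2, 252 and 89.7 CPM in untreated glands, and the fat hormone gene Adipoq had 2548, 4165 and 767 CPM and 2951, 2467 and 2313 CPM. Several libraries stood apart. Endpoint library 3 carried blood and granulocyte RNA, endpoint library 1 carried milk protein RNA, and untreated libraries 1 and 3 carried muscle and lymphoid RNA, with values given below. Of the WT endpoint libraries, library 1 also stood apart. Its mean log2 CPM of luminal genes, relative to the 6 libraries, was -4.75, against 0.88 and -1.29 in WT endpoint libraries 2 and 3. For brown fat genes it was 4.36, against -2.75 and -1.75. WT endpoint medians given below rest on these 3 libraries. Log2 expression, relative to the mean of the 6 libraries, had a slope for each doubling of transcript length of -0.083, -0.025 and -0.020 in the endpoint libraries and 0.084, 0.031 and 0.014 in the untreated ones. Long transcripts were thus lower in all 3 endpoint libraries than in all 3 untreated ones, and the part of this trend in the results was not tested.

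No gene passed the test. With edgeR's quasi-likelihood test, 0 of 15482 genes (0%) had a Benjamini-Hochberg adjusted p under 0.05, and the lowest adjusted p was 0.201. At an unadjusted p under 0.05 there were 2268 genes (14.6%). In WT glands the same contrast had 5 called genes (0.0323%), and 6.58% of genes were higher and 5.47% lower at an unadjusted p under 0.05. Of the 2268 in Cip2a-/-, 1184 (7.65%) were higher and 1084 (7%) lower at the endpoint. With DESeq2, 277 of 15041 genes were called, 152 higher (1.01%) and 125 lower (0.831%), and with limma-voom 0 were called. Without endpoint library 1, edgeR called 7 genes higher (Ppap2a, Mafk, Sgk1, Mapk1ip1, Ppp1r15a, Ercc1 and Cebpd) and 2 lower (D0H4S114 and Stard4). Values of the 3 endpoint libraries all lay above the 3 untreated ones for 1268 genes (8.19%) and all below them for 1459 (9.42%). The genes below are therefore given as higher or lower with their values, and the counts of list members are counts at an unadjusted p under 0.05 unless a tool is named. The labels do not say in so many words that each library is a separate animal, so p-values measure the spread between these samples.

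The first 8 genes had the smallest p among genes of at least 5 CPM on average that were higher at the endpoint. A lack of overlap with the untreated libraries was a condition of this choice. Gadd45g (chr13:51846675-51848475), a stress-induced gene of growth arrest, had 88.8, 114 and 130.3 CPM in endpoint and 23.2, 29.98 and 36.8 CPM in untreated glands, a log2 fold change of 1.89 ± 0.34 (SE; unadjusted p = 6.45e-05). Mycl1 (chr4:122995588-123002490), a transcription factor of the Myc family, had 67.5, 40.0 and 78.2 CPM in endpoint and 8.07, 10.3 and 8.75 CPM in untreated glands, with a log2 fold change of 2.78 ± 0.53. The untreated values of Mycl1 were close together, and the lowest endpoint value was several times higher than the highest of them. Cebpd (chr16:15887286-15889545), a transcription factor of acute phase and stress responses, had 43.1, 63.5 and 172 CPM against 17.3, 19.3 and 21.2 CPM (2.27 ± 0.45). Ppp1r15a (chr7:45522917-45526268), whose product brings a phosphatase to the translation factor eIF2α, had 42.8, 54.8 and 112 CPM against 24.4, 23.7 and 32.5 CPM (1.38 ± 0.27). In both Cebpd and Ppp1r15a endpoint library 3 was the highest and endpoint library 1 the lowest of its group. Mgat3, which adds the bisecting sugar to N-glycans, had 21.6, 22.5 and 34.9 CPM in endpoint and 8.55, 9.24 and 9.61 CPM in untreated glands (1.53 ± 0.31). The G protein regulator gene Rgs3 had 115, 137 and 130.1 CPM and 70.7, 70.8 and 66.8 CPM (0.87 ± 0.17), and its endpoint libraries lay within a narrow range. Dctn3, a subunit of the dynein partner dynactin, and Dbndd2 had smaller differences, with log2 fold changes of 0.59 ± 0.12 and 0.70 ± 0.15. In WT glands the same contrast gave 1.64 ± 0.34 for Gadd45g, 1.74 ± 0.51 for Mycl1, 0.56 ± 0.43 for Cebpd and -0.08 ± 0.31 for Mgat3. The genotype difference was largest for Cebpd (1.70 ± 0.61, unadjusted p = 0.0144) and Mgat3 (1.61 ± 0.43, unadjusted p = 0.00219) among the 8, with an edgeR adjusted p of 0.49 in each case.

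The 8 genes with the smallest p among those lower at the endpoint were chosen in the same way, so their lack of overlap was again a condition. Abcc1 (chr16:14361453-14474878), an exporter of glutathione conjugates and of many drugs, had 52.2, 52.1 and 57.9 CPM in endpoint and 96.3, 85.1 and 90.9 CPM in untreated glands, a log2 fold change of -0.75 ± 0.12 (SE; unadjusted p = 1.84e-05), the smallest p of all genes. Its 2-week values of 81.8, 79.2 and 93.7 CPM overlapped those of untreated glands. Rbl1 (chr2:157145893-157204534), the retinoblastoma relative p107, had 6.57, 9.19 and 8.41 CPM against 15.004, 14.8 and 16.9 CPM (-0.95 ± 0.21). Cdc7 (chr5:106964315-106984440), the kinase that fires replication origins, had 5.36, 5.80 and 5.48 CPM against 6.93, 22.2 and 15.4 CPM (-1.42 ± 0.33), and untreated library 1 was close to the endpoint values. Rfc1 (chr5:65261852-65338617), the largest subunit of the loader of the replication clamp, had 44.4, 42.0 and 42.9 CPM against 64.5, 66.5 and 60.5 CPM (-0.57 ± 0.12). The WT contrast was 0.11 ± 0.20 for Rbl1, 0.55 ± 0.32 for Cdc7 and -0.08 ± 0.12 for Rfc1. The genotype difference was -1.97 ± 0.46 for Cdc7 (unadjusted p = 0.000681, edgeR adjusted p = 0.49). Tbl1x, a subunit of a nuclear receptor corepressor, had 14.7, 12.1 and 9.02 CPM in endpoint and 51.3, 35.6 and 26.4 CPM in untreated glands (-1.66 ± 0.31). The matrix protein gene Abi3bp had 19.3, 18.1 and 21.7 CPM and 45.8, 33.0 and 60.3 CPM (-1.23 ± 0.23), beside -1.95 ± 0.24 in WT. The endosomal chloride transporter gene Clcn6 (-1.04 ± 0.20) and the flagellin receptor gene Tlr5 (-1.51 ± 0.34) completed the 8. DESeq2 called all 16 genes of both directions, among 277 of 15041 genes that it called. The 16 had been chosen by their edgeR p in the same libraries, so these calls are no separate support.

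**Figure D1:**
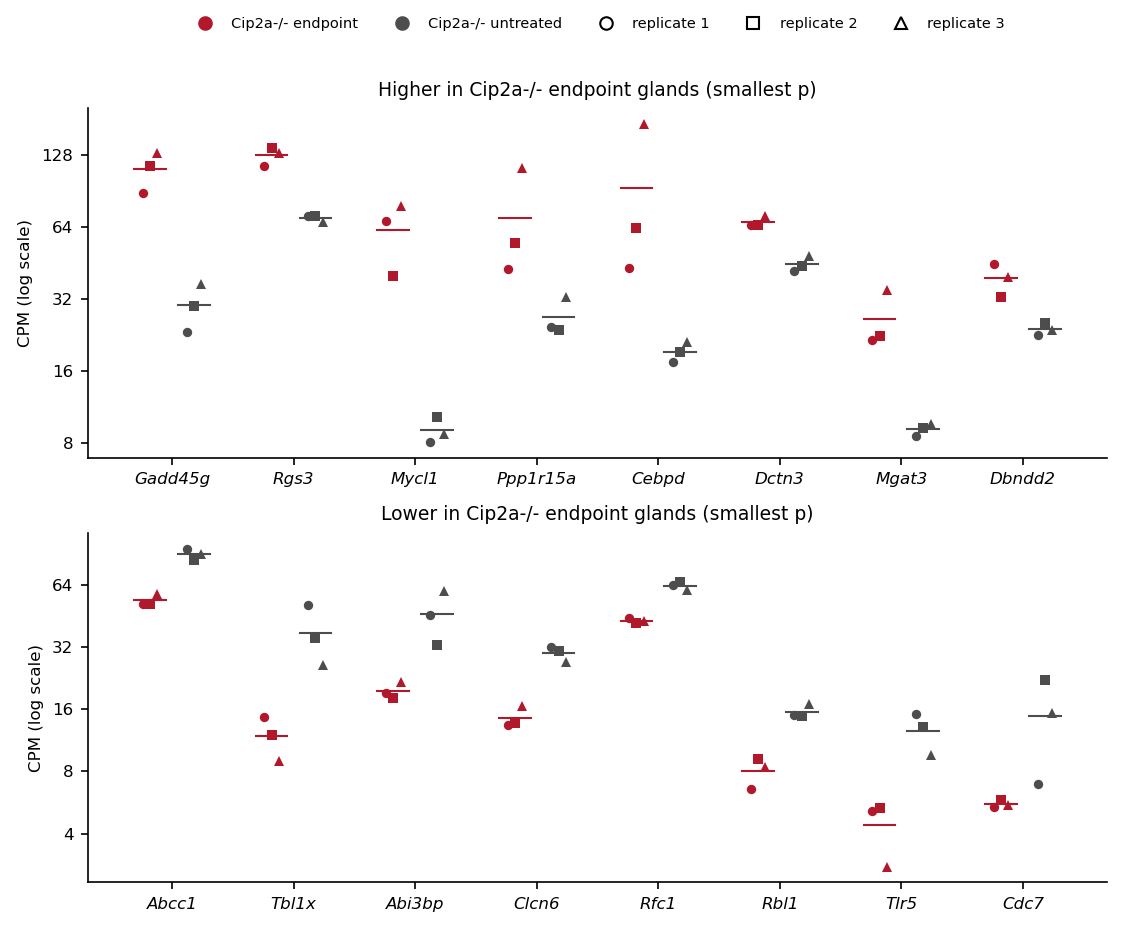
CPM on a log axis of the 8 genes with the smallest p in each direction, with endpoint libraries (red) left of untreated libraries (grey) for each gene; symbols mark the replicate and lines the mean of 3. Groups without overlap were a condition of the choice of these genes. In Cebpd the endpoint libraries span 43.1 to 172 CPM.

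Targets of the glucocorticoid receptor and metallothionein genes were higher at the endpoint. Of 14 tested, 13 had a positive value, with a median log2 fold change of 1.63, against -0.04 over all genes. At an unadjusted p under 0.05, 8 were higher, against 7.65% of all genes. Without overlap, 4 were higher, against 8.19%. DESeq2 called 5 of the 14 higher, against 1.01% of all genes. Sgk1 (chr10:21882184-21999903), a kinase gene induced by corticosteroids, had 56.7, 168 and 430.1 CPM in endpoint and 47.6, 47.9 and 45.5 CPM in untreated glands (2.21 ± 0.52). Mt2 (chr8:94172618-94173567) and Mt1 (chr8:94178883-94180327) encode the small proteins that bind zinc and copper. Mt2 had 32.5, 25.5 and 313 CPM in endpoint and 11.2, 11.4 and 13.1 CPM in untreated glands (3.38 ± 0.80), and Mt1 95.1, 63.2 and 369 CPM and 41.7, 38.7 and 39.9 CPM (2.13 ± 0.56). The untreated values of all 3 genes were nearly level, while endpoint library 3 stood far above the others. Errfi1, a feedback inhibitor of the EGF receptor, had 86.6, 100.4 and 333 CPM against 40.1, 65.5 and 47.1 CPM (1.77 ± 0.47). Fkbp5, a cochaperone of the receptor, had 49.9, 242 and 432 CPM against 26.7, 57.3 and 46.0 CPM (2.48 ± 0.69), and the anti-inflammatory target Tsc22d3 had 67.5, 142 and 425 CPM against 78.0, 53.1 and 95.4 CPM (1.49 ± 0.50). In Fkbp5 and Tsc22d3 endpoint library 1 lay within the untreated range. The list score, which is the mean over its genes of log2 CPM centred on the 6 libraries, was -0.37, 0.54 and 1.60 in endpoint and -0.48, -0.56 and -0.73 in untreated glands. With endpoint library 3 left out, 5 of 14 had an unadjusted p under 0.05 and the median was 0.93, the lowest with any library left out. At 2 weeks the list was at the untreated level (median -0.01). In WT the endpoint median was 0.64. For the genotype difference, 0 of 14 members had an unadjusted p under 0.05, against 10% of all genes. The 0 became 5 higher without Cip2a-/- endpoint library 1, 2 without WT endpoint library 2, and 1 without Cip2a-/- endpoint library 2 or WT untreated library 1. The erythroid and neutrophil markers that were high in endpoint library 3 are given below.

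The promoters of the 3 genes of this list with the smallest p are shown because they carry the letters that the metal-sensing factor MTF-1 and the glucocorticoid receptor bind. Each is 300 bases long, from 250 before to 50 after a start of transcription, read 5′ to 3′ on the strand of the gene from RefSeq (GRCm38.p6). For Mt1 and Sgk1 the start used lies inside the gene position given above, not at its edge. Capitals mark the metal response core (TGCACNC or TGCGCNC) in Mt2 (chr8:94172368-94172667, plus strand) and Mt1 (chr8:94178839-94179138, plus strand), and the glucocorticoid response element (AGAACA, NNN and TGTTC in a row) in Sgk1 (chr10:21993640-21993939, plus strand, 1 of 6 promoters of the gene), on either strand.
Mt2: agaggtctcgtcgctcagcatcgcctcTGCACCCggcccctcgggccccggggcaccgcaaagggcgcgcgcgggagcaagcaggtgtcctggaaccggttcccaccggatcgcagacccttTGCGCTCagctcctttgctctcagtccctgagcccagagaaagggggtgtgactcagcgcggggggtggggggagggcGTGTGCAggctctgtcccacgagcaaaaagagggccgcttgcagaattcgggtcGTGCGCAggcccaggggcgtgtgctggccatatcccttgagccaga
Mt1: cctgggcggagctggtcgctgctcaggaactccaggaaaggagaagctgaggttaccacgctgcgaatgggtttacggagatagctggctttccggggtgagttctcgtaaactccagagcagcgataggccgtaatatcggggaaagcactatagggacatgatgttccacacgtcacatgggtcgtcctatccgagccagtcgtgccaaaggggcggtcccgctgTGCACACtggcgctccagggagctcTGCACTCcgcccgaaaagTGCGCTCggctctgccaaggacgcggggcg
Sgk1: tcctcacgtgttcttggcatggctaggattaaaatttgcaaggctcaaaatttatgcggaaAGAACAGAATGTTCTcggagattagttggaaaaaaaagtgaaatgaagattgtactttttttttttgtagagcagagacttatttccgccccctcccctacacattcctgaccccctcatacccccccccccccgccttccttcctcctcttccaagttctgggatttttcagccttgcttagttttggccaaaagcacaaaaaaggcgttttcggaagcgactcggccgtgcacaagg
Mt2 held 4 metal response cores and Mt1 held 3, while 25.7% of all 32851 promoters held at least 1. The glucocorticoid response element was present in 0.0487% of promoters. Among the 11 list genes with a promoter in the table it was found in Sgk1 alone, as 2 overlapping matches that make up 1 palindrome. Here a gene was counted if any of its promoters held the element. A match is a description of the letters and no measured binding.

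Immediate early genes, which cells switch on within minutes of a stimulus, were mostly higher as well. Of 27 tested, 14 were higher and 2 lower at an unadjusted p under 0.05 (7.65% and 7% over all genes), with a median of 0.76 (0.49 to 1.14 with 1 library left out). Without endpoint library 3 the 14 became 6, and without untreated library 1 or 2 they became 7 and 9. Ier3, an early response gene that restrains cell death, had 30.4, 14.6 and 17.9 CPM in endpoint and 7.95, 9.30 and 10.6 CPM in untreated glands (1.17 ± 0.30). The matrix signal genes Cyr61 and Ctgf, targets of YAP, had log2 fold changes of 1.67 ± 0.50 and 1.82 ± 0.63. Cyr61 had 71.3, 81.8 and 103 CPM in endpoint and 15.4, 27.2 and 37.9 CPM in untreated glands, with no overlap. The AP-1 gene Fos had 55.5, 41.2 and 42.8 CPM against 9.74, 15.02 and 24.8 CPM (1.49 ± 0.60), also with no overlap. Klf4, a transcription factor of epithelia and vessels, had 55.8, 171 and 244 CPM against 39.6, 43.7 and 75.7 CPM (1.57 ± 0.47), beside -0.18 ± 0.45 in WT. Both genes that were lower were transcription factors: Egr3 had 1.65, 0.645 and 1.11 CPM against 2.27, 6.71 and 5.04 CPM (-2.03 ± 0.61), and Nr4a3, at under 1 CPM in all 6 libraries, had -2.23 ± 0.64. The genotype difference of Egr3 was -3.15 ± 0.85 (unadjusted p = 0.0022, edgeR adjusted p = 0.49), with 1.12 ± 0.59 in WT.

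**Figure D2:**
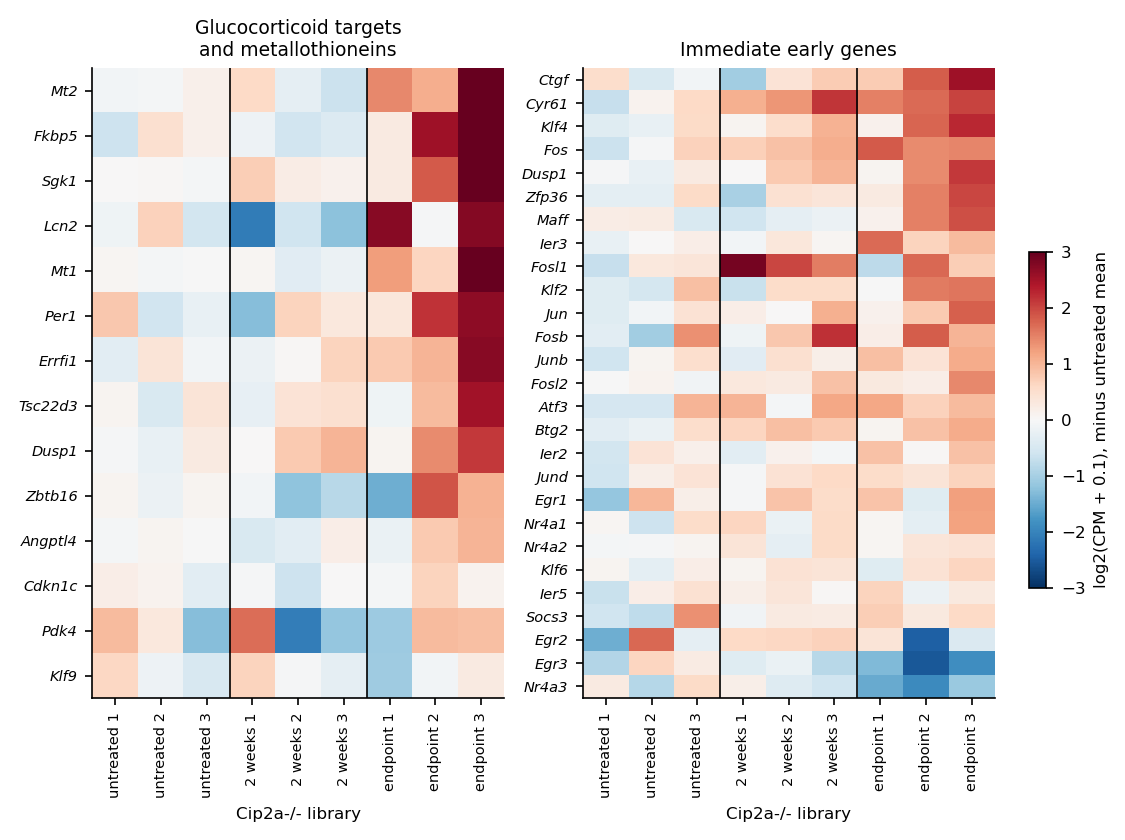
Each row is 1 gene of the glucocorticoid and metallothionein list (left) or the immediate early list (right), each column 1 Cip2a-/- library in the order untreated, 2 weeks and endpoint. Colour is log2(CPM + 0.1) minus the mean of the 3 untreated libraries, limited to -3 to 3; endpoint library 3 is the reddest column on the left, where Mt2 reached 313 CPM.

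Other stress responses differed gene by gene rather than as lists. Of 16 heat shock genes, 5 were higher and 1 was lower, against 7.65% and 7% of all genes, with a median of -0.28. The small heat shock protein gene Hspb1 had 92.8, 100.2 and 184 CPM in endpoint and 47.1, 57.6 and 58.3 CPM in untreated glands (1.21 ± 0.31), and the inducible chaperone gene Hspa1b had 39.4, 37.8 and 50.8 CPM and 7.23, 13.8 and 18.5 CPM (1.69 ± 0.68). Hspa1b has a near-identical copy, Hspa1a, so the split of reads between them is uncertain. The cochaperone genes Bag3 (0.70 ± 0.22) and Dnajb1 (0.40 ± 0.16) also had no overlap, whereas Hsp90aa1, the stress-induced HSP90, was lower (-0.59 ± 0.26). Without endpoint library 3 or untreated library 1 or 2, the 5 became 2 and the 1 that was lower became 0, and without endpoint library 1 or untreated library 3 that 1 became 3. The median was between -0.41 and -0.11 with 1 library left out. Of 25 genes of the unfolded protein and integrated stress responses, 3 were higher and 0 lower: Gadd45g, Ppp1r15a and Atf4, the central transcription factor, with 184, 203 and 247 CPM in endpoint and 121, 146 and 182 CPM in untreated glands (0.50 ± 0.19). The median of that list was -0.03. The count of 0 lower became 3 without untreated library 1, and 1 without endpoint library 1 or 2 or untreated library 2 or 3.

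Some genes of the defence against DMBA and oxidants had an unadjusted p under 0.05, where 7.65% of all genes were higher and 7% lower. Of 24 Nrf2 and glutathione genes, 3 were higher and 0 lower, and without endpoint library 1 they were 5 and 0. The median was 0.41 with all libraries, 0.18 without endpoint library 1 and 0.24 without untreated library 3. The secreted glutathione peroxidase gene Gpx3 had 8484, 1456 and 3118 CPM in endpoint and 1335, 472 and 429.5 CPM in untreated glands (2.55 ± 0.75), beside 2.40 ± 0.74 in WT. The lowest endpoint library of Gpx3 was close to the highest untreated one. Glutathione reductase (Gsr) had 61.1, 93.1 and 64.5 CPM against 39.2, 49.4 and 40.4 CPM (0.76 ± 0.23), and Gpx1 had 0.51 ± 0.18. Of 15 genes induced through the aryl hydrocarbon receptor or acting on DMBA, 3 were higher and 0 lower, with a median of 0.18 (0.14 to 0.31 with 1 library left out), and 1 was lower without endpoint library 2 or 3. Ephx1 (chr1:180989556-181017569), the epoxide hydrolase that acts on DMBA epoxides, had 101, 97.8 and 111 CPM in untreated glands, 344, 407 and 295 CPM at 2 weeks and 163, 174 and 169 CPM at the endpoint (0.71 ± 0.23 over untreated). In WT the endpoint contrast of Ephx1 had the other sign, -0.67 ± 0.23, and the genotype difference was 1.38 ± 0.33 (unadjusted p = 0.000837, edgeR adjusted p = 0.49). DESeq2 called 1 member of this list higher for the genotype difference, against 0.0533% of all genes. The quinone reductase gene Nqo1 had 20.7, 14.6 and 18.7 CPM in endpoint and 10.9, 11.3 and 9.21 CPM in untreated glands (0.78 ± 0.27), and -0.52 ± 0.26 in WT. Aldh3a1, an aldehyde dehydrogenase gene, reached 76.8 CPM in endpoint library 3, against 5.46 and 1.72 CPM in the other endpoint glands.

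Targets of p53 were close to untreated levels at the endpoint. Of 32 tested, 5 were higher and 0 lower, against 7.65% and 7% of all genes. The median was 0.10, where the 2-week glands had a median of 0.99 over untreated. Without endpoint library 2 or 3 the 5 became 2 and 1, and without untreated library 1 or 2 they became 3 and 2. The 0 that were lower became 2 without endpoint library 1 and 1 without endpoint library 2, and the median was -0.06 to 0.24 with 1 library left out. Against 2 weeks, 17 of 32 were lower at the endpoint and 1 was higher, where 11.9% of all genes were lower and 11.7% higher at an unadjusted p under 0.05. Cdkn1a (chr17:29090979-29100722), the cell cycle inhibitor p21, had 29.4, 43.8 and 65.2 CPM in untreated glands, 1081, 655 and 432 CPM at 2 weeks and 67.2, 121 and 496 CPM at the endpoint. Its endpoint values lay above all untreated ones (2.31 ± 0.77), and endpoint library 3 was within the 2-week range. The death receptor gene Tnfrsf10b had 30.3, 25.3 and 36.5 CPM in endpoint and 18.5, 17.3 and 12.8 CPM in untreated glands (0.92 ± 0.24). Gdf15, a stress cytokine gene, had 0.179, 0.330 and 0.869 CPM in untreated glands, 25.4, 20.1 and 13.5 CPM at 2 weeks and 0.652, 0.591 and 0.996 CPM at the endpoint. Its endpoint level was thus near that of untreated glands and its contrast with 2 weeks was -4.71 ± 0.73 (edgeR adjusted p = 0.0542).

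Genes of DNA replication were lower at the endpoint in Cip2a-/- glands and higher at the endpoint in WT glands. Of 34 tested, 0 had a positive value in Cip2a-/- and 16 had an unadjusted p under 0.05, against 7% of all genes in this direction. Only 4 of the 34 had no overlap, near the share of 9.42% of all genes. The list median was -0.71, against 0.78 in WT. DESeq2 called 4 lower in Cip2a-/-, against 0.831% of all genes. The list score was -0.18, -0.71 and -0.13 in endpoint and -0.51, 0.73 and 0.80 in untreated Cip2a-/- glands, against 0.56, 0.48 and 0.17 in endpoint and -0.04, -0.37 and -0.52 in untreated WT glands. Untreated library 1 was below 2 of the 3 endpoint libraries, and the 2 high values were those of untreated libraries 2 and 3. Without untreated library 2 or 3 the count of 16 became 7 and 8, without endpoint library 2 it became 9, and without untreated library 1 it became 27. Over the 6 libraries left out in turn the median stayed between -0.99 and -0.39.

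Hells (chr19:38930262-38970470), a chromatin remodeller of dividing cells, had 1.60, 1.29 and 1.77 CPM in endpoint and 3.05, 7.70 and 7.18 CPM in untreated Cip2a-/- glands (-1.94 ± 0.47; unadjusted p = 0.001). In WT it had 7.48, 5.69 and 1.77 CPM in endpoint and 1.91, 1.73 and 1.27 CPM in untreated glands. Its genotype difference of -3.54 ± 0.66 had the smallest unadjusted p of all genes (9.55e-05; edgeR adjusted p = 0.49). Pola1 (chrX:93304766-93632387), the catalytic subunit of the polymerase that starts DNA strands, had 5.51, 4.35 and 3.37 CPM against 6.04, 11.0 and 10.02 CPM (-1.03 ± 0.27), with no overlap. Pole (chr5:110286319-110337468), the leading strand polymerase, had 6.27, 2.96 and 6.64 CPM against 6.22, 17.3 and 16.6 CPM (-1.34 ± 0.36), and here untreated library 1 lay within the endpoint range. In WT, Pole had 12.2, 12.1 and 11.1 CPM in endpoint and 7.33, 4.80 and 5.10 CPM in untreated glands. Mcm5, a subunit of the replicative helicase, had 15.2, 7.04 and 14.2 CPM against 10.4, 44.8 and 49.9 CPM (-1.53 ± 0.50). The genes with the least difference in Cip2a-/- were Rfc3 (-0.10 ± 0.24) and Mcm7 (-0.13 ± 0.26).

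Genes of G2 and mitosis had the same sign with less separation between libraries. Of 36 tested, 0 were positive in Cip2a-/- and 3 had an unadjusted p under 0.05, near the share of 7% of all genes in this direction. The median was -0.63, against 1.40 in WT. In Cip2a-/- that median was -0.21 without endpoint library 2, -0.39 and -0.37 without untreated library 2 or 3, -1.01 without endpoint library 1 and -1.08 without untreated library 1. The score was 0.53, -1.98 and 0.34 in endpoint and -1.22, 1.12 and 1.20 in untreated Cip2a-/- glands, so that the groups overlapped, with endpoint library 2 and untreated library 1 as the lowest of the 6. The 3 became 7 without endpoint library 1, and without untreated library 1 they became 16. The proliferation marker Mki67 had 29.3, 1.02 and 64.5 CPM in endpoint and 5.38, 54.2 and 81.0 CPM in untreated glands (-0.57 ± 0.94). Ncapg2 (chr12:116405351-116463532), a condensin subunit, had 5.01, 4.51 and 4.81 CPM against 7.95, 8.53 and 11.1 CPM (-0.94 ± 0.30), with no overlap, and in WT 6.27, 8.63 and 6.64 CPM in endpoint and 3.25, 4.24 and 2.88 CPM in untreated glands. Smc2, another condensin gene, had -1.16 ± 0.39, and Ect2, a regulator of cytokinesis, had -1.53 ± 0.63.

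Both lists were also read in the test of the difference between the genotypes. Over all genes, edgeR called 0 for it (0%), 1553 (10%) had an unadjusted p under 0.05, of which 3.24% of genes were higher and 6.79% lower in Cip2a-/-, DESeq2 called 9 higher (0.0533%) and 25 lower (0.148%), and limma-voom called 0. Of 34 replication genes, 27 were lower at an unadjusted p under 0.05 and 0 higher, and with any of the 12 libraries left out the count lay between 21 and 29. Of 36 G2 and mitosis genes, 23 were lower. That count became 10 and 9 without Cip2a-/- untreated library 2 or 3, 12 without WT endpoint library 2, 11 and 9 without WT untreated library 2 or 3, and 34 without Cip2a-/- untreated library 1. DESeq2 called 4 replication genes and 1 mitosis gene for this difference. After Hells, the genes with the smallest p were Vit, a matrix protein gene (3.17 ± 0.67), Dscc1, which acts in sister chromatid cohesion (-3.14 ± 0.67), Pole (-2.37 ± 0.51) and Ncapg2 (-2.00 ± 0.43), each at an edgeR adjusted p of 0.49.

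**Figure D3:**
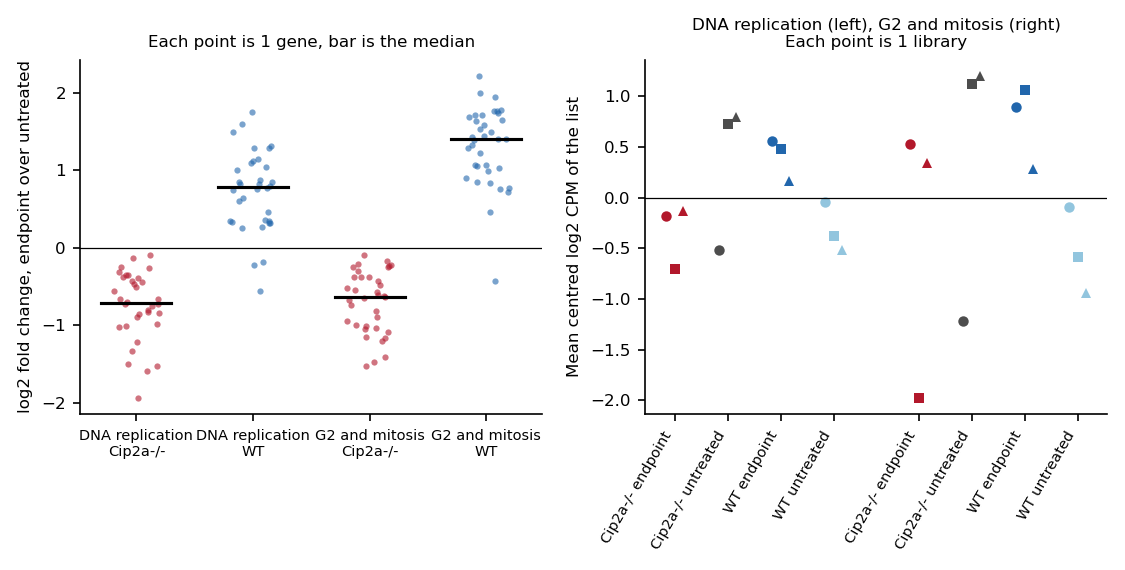
Left, log2 fold change of endpoint over untreated for each gene of the DNA replication list (34 genes) and the G2 and mitosis list (36), in Cip2a-/- and WT; bars are medians, -0.71 and 0.78 for replication. Right, the score of both lists in each library (symbols mark the replicate): Cip2a-/- untreated library 1 lies below the other 2 untreated libraries of its genotype.

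The promoters of 3 of these genes are shown with the binding letters of E2F factors, which switch on replication genes at the entry into S phase. Capitals mark TTTCCCGC, TTTGGCGC, TTTCGCGC or TTTGCCGC on either strand in Hells (chr19:38930740-38931039, plus strand), Pola1 (chrX:93632106-93632405, minus strand) and Ncapg2 (chr12:116405186-116405485, plus strand). The windows are as above, 5′ to 3′ on the strand of the gene, from RefSeq (GRCm38.p6). For all 3 genes the start used lies inside the gene position given above, not at its edge.
Hells: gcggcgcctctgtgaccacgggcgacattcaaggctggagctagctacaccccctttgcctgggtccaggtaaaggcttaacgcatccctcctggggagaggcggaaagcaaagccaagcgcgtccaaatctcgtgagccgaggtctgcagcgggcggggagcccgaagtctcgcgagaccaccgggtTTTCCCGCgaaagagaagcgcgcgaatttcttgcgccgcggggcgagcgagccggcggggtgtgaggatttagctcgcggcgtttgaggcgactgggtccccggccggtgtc
Pola1: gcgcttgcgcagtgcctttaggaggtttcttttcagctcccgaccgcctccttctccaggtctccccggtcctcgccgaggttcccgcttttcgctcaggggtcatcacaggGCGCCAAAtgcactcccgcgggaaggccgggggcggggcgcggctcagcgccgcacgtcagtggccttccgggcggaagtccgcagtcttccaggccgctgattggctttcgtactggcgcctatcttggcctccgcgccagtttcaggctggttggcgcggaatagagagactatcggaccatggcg
Ncapg2: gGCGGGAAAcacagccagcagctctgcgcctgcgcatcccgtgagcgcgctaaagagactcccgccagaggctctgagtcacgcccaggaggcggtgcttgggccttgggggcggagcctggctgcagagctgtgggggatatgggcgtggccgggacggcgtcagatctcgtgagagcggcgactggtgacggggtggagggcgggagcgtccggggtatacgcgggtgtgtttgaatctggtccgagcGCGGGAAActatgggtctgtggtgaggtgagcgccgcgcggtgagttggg
One of these words was present in 2.26% of all 32851 promoters. It was present in 13 of the 28 replication genes with a promoter in the table, Mcm3, Mcm5, Mcm6, Mcm7, Cdc6, Cdt1 and Pola1 among them, and in 3 of 31 G2 and mitosis genes (Cdk1, Ncapg and Ncapg2). A gene was counted if any of its promoters held the word, so these counts and the share of promoters are not of like units. Mcm7 and Rfc3, which differed least, held the word too. The replication list was built around known E2F targets, so the share is a property of the list.

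DNA repair genes were mostly lower in sign. Of 33 tested, 29 had a negative and 4 a positive value, with a median of -0.43 (-0.49 to -0.33 with 1 library left out). At an unadjusted p under 0.05, 3 were higher, near the share of 7.65% of all genes, and 7 were lower, against 7%. Values did not overlap for 2 higher and 10 lower genes, against 8.19% and 9.42% of all genes. Without untreated library 2 the 7 became 2. The nucleotide excision repair genes Ercc1 and Xpa and the single-strand break scaffold gene Xrcc1 were the 3 that were higher. Ercc1 had 29.7, 56.7 and 75.5 CPM in endpoint and 23.6, 29.3 and 27.4 CPM in untreated glands (1.01 ± 0.26), beside -0.03 ± 0.26 in WT. Xrcc1 had 64.0, 61.7 and 68.6 CPM against 44.7, 46.9 and 50.8 CPM (0.45 ± 0.13), and Xpa had 0.81 ± 0.28. Among the genes that were lower, the mismatch repair gene Msh6 had 25.9, 22.5 and 22.4 CPM against 34.2, 34.4 and 36.0 CPM (-0.56 ± 0.19), with no overlap. For the genotype difference 13 of the 33 were lower and 2 higher at an unadjusted p under 0.05, against 6.79% and 3.24% of all genes. The 2 that were higher became 1 to 3 with a library left out.

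Genes of cholesterol synthesis were lower at the endpoint. Of 21 tested, 20 had a negative value, with a median of -0.87, against 0.32 in WT. At an unadjusted p under 0.05, 8 were lower and 0 higher, against 7% and 7.65% of all genes. Without overlap, 5 were lower, against 9.42%. The 8 became 16 without endpoint library 1, and without endpoint library 3 or untreated library 2 they became 5. The median stayed between -1.27 and -0.56. Idi1, which makes the isoprene building block of sterols, had 2.51, 2.79 and 0.221 CPM in endpoint and 9.50, 9.24 and 5.15 CPM in untreated glands (-2.11 ± 0.69). Stard4, which carries sterols between membranes, had 6.82, 2.47 and 3.32 CPM against 11.0, 12.5 and 8.92 CPM (-1.36 ± 0.34), and the dehydrogenase gene Hsd17b7 had 5.21, 7.68 and 4.32 CPM against 12.9, 14.4 and 9.15 CPM (-1.08 ± 0.34). All 3 of these genes had no overlap. For the genotype difference 5 members were lower at an unadjusted p under 0.05 and 0 higher, against 6.79% and 3.24% of all genes. The count of 5 lay between 1 (without Cip2a-/- endpoint library 3, Cip2a-/- untreated library 2 or WT endpoint library 1) and 12 (without Cip2a-/- endpoint library 1). It was 10 without WT endpoint library 2, and 3 and 2 without WT untreated library 1 or 2. The sterol regulatory element (TCACNCCAC) was found in 1 of 14 list genes with a promoter in the table, Hmgcs1, and in 1.24% of all promoters. A gene can have several promoters, so the 2 shares are not of like units.

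Genes of fatty acid and triglyceride synthesis had a median of -0.83 over 20 genes (-2.08 to -0.25 with 1 library left out). Of them 1, the desaturase gene Scd2 (-1.69 ± 0.69), was lower at an unadjusted p under 0.05, near the share of 7% of all genes. Scd2 had 489, 58.9 and 133 CPM in endpoint and 996, 825 and 377 CPM in untreated glands, so that endpoint library 1 overlapped the untreated range. With endpoint library 1 left out the median was -2.08 with 12 genes lower, and the count was 4 without untreated library 3 and 0 without endpoint library 3 or untreated library 1 or 2. Dgat2, which completes triglycerides, had 1496, 865 and 246 CPM against 2621, 2176 and 1542 CPM (-1.28 ± 0.61). The fat cell gene Plin1 stood at 1326, 2395 and 144 CPM in endpoint and 1819.8, 1516 and 1261 CPM in untreated glands, lowest in endpoint library 3, and the part of fat cell content in these lipid genes was not tested.

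Cytosolic ribosomal protein genes had small positive values. All 49 tested were positive, with a median of 0.45 (0.18 to 0.67 with 1 library left out), against 0.49 in WT. Without overlap there was 1 (8.19% of all genes), and 13 had an unadjusted p under 0.05 (7.65% of all genes). The count of 13 followed single libraries: 0 without endpoint library 3, 5 without endpoint library 1, 1 without untreated library 1, 31 without untreated library 3 and 47 without endpoint library 2. Rpl28 had 591, 337 and 750.0 CPM in endpoint and 243, 372 and 435 CPM in untreated glands (0.68 ± 0.26), and Rpl24 had 0.57 ± 0.20. Against 2 weeks, 44 of 49 were higher at the endpoint at an unadjusted p under 0.05, against 11.7% of all genes, with a median of 0.72. These transcripts are short and have many processed copies in the genome, so the length trend given above and the assignment of reads bear on them, and their part was not tested.

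The endothelial list had a positive and the collagen list a negative median, while 3 other lists of matrix genes had medians of 0.04 (proteoglycans and adaptors), 0.05 (collagen processing and crosslinking) and 0.25 (proteases and inhibitors). Of 17 endothelial markers, 8 were higher and 0 lower, against 7.65% and 7% of all genes, and 5 had no overlap, against 8.19%. The median was 0.78 (0.47 to 0.99 with 1 library left out), against -0.08 in WT. Eng, a TGF-beta coreceptor of vessels, had 302, 461 and 514 CPM in endpoint and 222, 273 and 219 CPM in untreated glands (0.84 ± 0.24), beside -0.15 ± 0.24 in WT (genotype difference 0.99 ± 0.34, unadjusted p = 0.0112, edgeR adjusted p = 0.49). Sox17, an arterial transcription factor, had 35.0, 86.5 and 168 CPM against 32.2, 40.5 and 26.9 CPM (1.54 ± 0.51), highest in endpoint library 3 and within the untreated range in endpoint library 1. The adhesion gene Vwf had 1.11 ± 0.42, and the markers Pecam1 and Cdh5 had 0.86 ± 0.34 and 0.57 ± 0.38. Without endpoint library 3 the 8 became 1, without endpoint library 1 they became 14, and without untreated library 1, 2 or 3 they became 4, 5 and 5. Rgs5, a pericyte marker, was lower, with 17.0, 19.8 and 23.6 CPM in endpoint and 66.5, 62.5 and 38.4 CPM in untreated glands (-1.47 ± 0.35) and a similar value in WT (-1.35 ± 0.35). The pericyte list did not share this direction. Of its 7 genes, 4 had a positive and 3 a negative value. Its median was 0.08 (-0.33 to 0.16 with 1 library left out), and 2 genes were lower and 0 higher at an unadjusted p under 0.05. Of 22 collagen genes, 5 were lower and 0 higher, with a median of -0.73 (-0.81 to -0.45 with 1 library left out), against -1.43 in WT. Only 1 of the 22 was lower without overlap, where 9.42% of all genes were. Col5a2, which shapes collagen I fibrils, had 187, 122 and 102 CPM against 199, 353 and 413 CPM (-1.23 ± 0.44). Col15a1, of the vessel basement membrane, had 409.7, 100.1 and 36.3 CPM against 371, 622 and 684 CPM (-1.62 ± 0.65). The 5 collagens became 0 without endpoint library 3 or untreated library 3, and 1 without endpoint library 2 or untreated library 2.

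**Figure D4:**
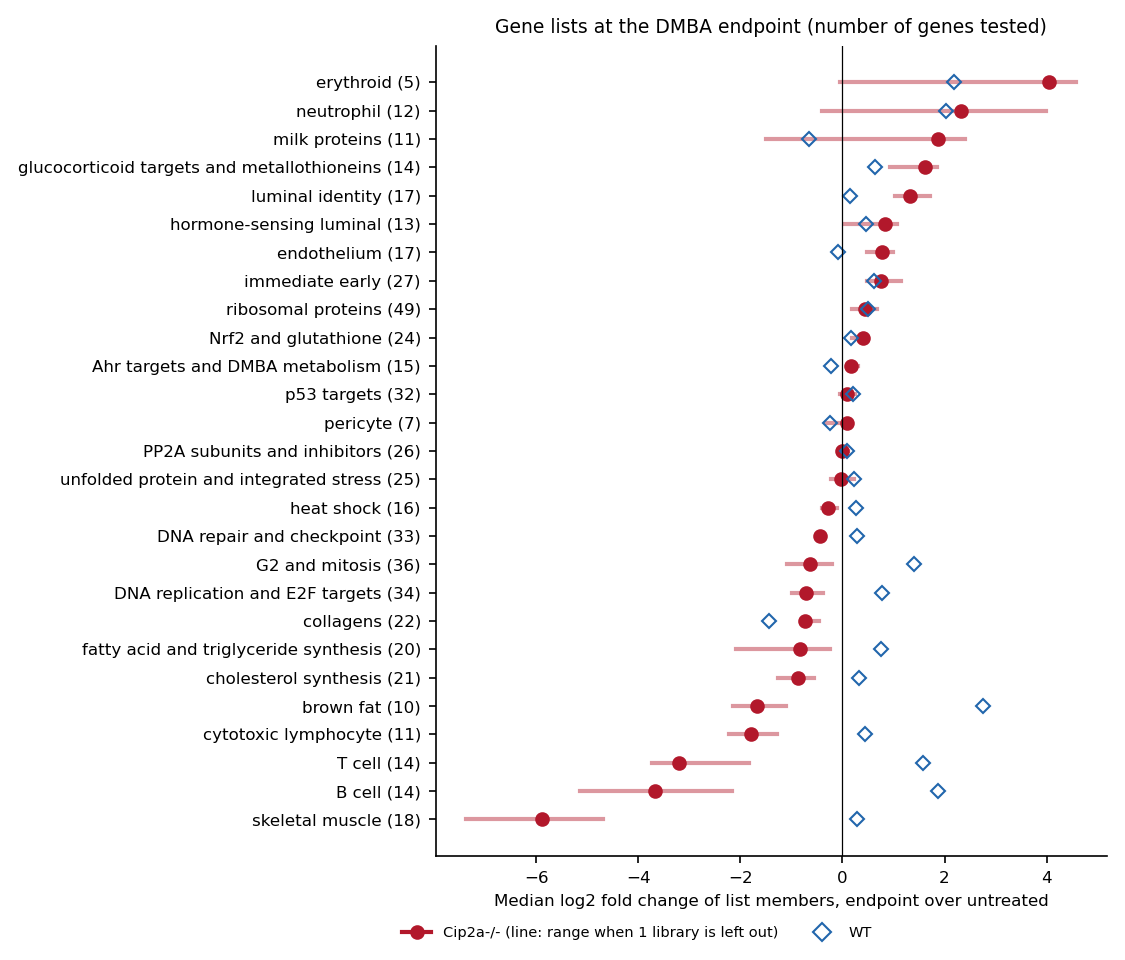
Median log2 fold change of endpoint over untreated for 27 gene lists in Cip2a-/- (red points, with lines for the range when each of the 6 libraries is left out) and in WT (blue diamonds), with the number of genes tested. DNA replication stands at -0.71 in Cip2a-/- and 0.78 in WT, and among the 3 highest medians the lines of the erythroid, neutrophil and milk protein lists cross 0.

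Luminal epithelial genes were mostly higher in sign. Of 17 tested, 16 had a positive value and 8 no overlap (8.19% of all genes were higher without overlap), with a median of 1.32. At an unadjusted p under 0.05, 1 was higher, near the share of 7.65% of all genes. That 1 became 0 without endpoint library 3 or untreated library 1 or 3, and 3 or 2 without endpoint library 2 or 1. The list score was 0.78, -0.03 and 1.11 in endpoint and -1.21, 0.11 and -0.75 in untreated glands, so that endpoint library 2 lay below untreated library 2. The tight junction gene Cldn4 had 110.2, 189.6 and 311 CPM in endpoint and 41.7, 72.3 and 59.3 CPM in untreated glands (1.82 ± 0.89), and the keratin gene Krt8 had 766, 234 and 556 CPM against 92.4, 262 and 161 CPM (1.59 ± 1.02). Of 13 hormone-sensing luminal genes, 9 had a positive value, with a median of 0.83 (0.06 without endpoint library 3). At an unadjusted p under 0.05, 3 were higher and 1 was lower, against 7.65% and 7% of all genes. With 1 library left out these counts were 2 to 4 and 1 to 2. The 1 that was lower was the estrogen receptor gene Esr1, with 6.52, 5.75 and 2.05 CPM in endpoint and 38.3, 14.2 and 7.24 CPM in untreated glands (-2.06 ± 0.69). The chemokine gene Cxcl15 was higher, with 355, 65.8 and 130.3 CPM against 13.8, 15.6 and 7.88 CPM (3.89 ± 1.12). Milk protein genes were high in endpoint library 1. Csn2, which encodes β-casein, had 1656, 0.269 and 2.21 CPM in endpoint and 7.77, 326 and 0.174 CPM in untreated glands (2.31 ± 2.76), and the median of 11 milk genes was 1.87 with all libraries and -1.50 without endpoint library 1.

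Markers of lymphocytes had negative medians at the endpoint, and untreated library 3 had the highest T cell and B cell scores of the 6 libraries. Of 14 T cell genes, 0 were positive, with a median of -3.21 (-3.73 to -1.84 with 1 library left out). At an unadjusted p under 0.05, 5 were lower, against 7% of all genes, and 8 had no overlap (9.42% of all genes were lower without overlap). Cd4, the coreceptor of helper T cells, had 1.75, 0.860 and 3.15 CPM in endpoint and 17.8, 4.51 and 62.5 CPM in untreated glands (-3.88 ± 1.61), and Cd3e, part of the T cell receptor complex, had 2.46, 2.15 and 4.04 CPM and 7.29, 3.69 and 33.0 CPM (-2.34 ± 1.37). Of 14 B cell genes, 4 were lower and 2 had no overlap, with a median of -3.67 (-5.14 to -2.17 with 1 library left out). The B cell score was -0.16, -2.46 and -1.74 in endpoint and 2.08, -1.18 and 3.46 in untreated glands, so that endpoint library 1 lay above untreated library 2, and Cd79a, part of the B cell receptor, had 9.27, 1.02 and 3.43 CPM against 47.3, 4.29 and 165 CPM (-3.97 ± 1.94). Of 11 cytotoxic lymphocyte genes, 7 were lower, and the pore protein gene Prf1 had 0.451, 0.752 and 0.166 CPM against 2.03, 2.26 and 7.99 CPM (-3.14 ± 1.01). The lymph node stroma genes moved with these: their score was 0.00, -1.89 and -0.93 in endpoint and 1.29, -1.24 and 2.76 in untreated glands, over 8 genes, of which 3 were lower and 1, Madcam1, was higher (1.80 ± 0.76). The 3 became 0 without endpoint library 3 or untreated library 3, 1 without endpoint library 1 or 2, and 5 without untreated library 2. Chst4, a marker of high endothelial venules, had 0 reads at the endpoint, which allows up to 0.0529 CPM, and 0.478, 0 and 3.53 CPM in untreated glands. The part of residual lymph node tissue in the lymphocyte values was not tested. Without untreated library 3 the counts became 0 for T cells, 0 for B cells and 2 for cytotoxic lymphocytes, and without endpoint library 3 they became 3, 0 and 2. The T cell and B cell counts became 1 each without endpoint library 1 or 2, the cytotoxic count was 4 without endpoint library 2, and without untreated library 2 the T cell and B cell counts became 11 and 8. In WT the medians were 1.58 for T cells and 1.88 for B cells. For the genotype difference, 11 T cell and 9 B cell genes were lower at an unadjusted p under 0.05, against 6.79% of all genes. Without WT endpoint library 1 there were 0 of either. Those T cell counts were 5, 4 and 6 without Cip2a-/- endpoint library 1, 2 or 3, and those of B cells 3 without Cip2a-/- endpoint library 2 or 3. Leaving out Cip2a-/- untreated library 3 gave 1 T cell and 2 B cell genes, WT untreated library 2 gave 3 of each and WT untreated library 3 gave 4 of each.

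Tissues next to the gland and blood also differed by library. Of 18 skeletal muscle genes all were lower, 5 at an unadjusted p under 0.05, against 7% of all genes. Muscle creatine kinase, Ckm, had 6.92, 1.24 and 32.7 CPM in endpoint and 2033, 6.00 and 872 CPM in untreated glands (-6.15 ± 3.26). Without endpoint library 1, 2 or 3 or untreated library 1 the 5 became 0, without untreated library 3 they became 2 and without untreated library 2 they became 10. The epidermal keratin gene Krt10 had 3.21, 2.15 and 1.88 CPM in endpoint and 3.11, 3.14 and 142 CPM in untreated glands, high in untreated library 3. Other epidermal genes differed from it. Of 10 tested, 5 had a positive and 5 a negative value. Their score was 1.56, -1.44 and 0.29 in endpoint and -1.62, -1.31 and 2.52 in untreated glands, so that endpoint library 1 was high as well. The brown fat gene Ucp1 had 8.27, 29.0 and 1.88 CPM against 318, 283 and 6.37 CPM (-3.95 ± 2.30). Erythroid genes were higher through endpoint library 3, where Alas2, which starts haem synthesis in red cells, had 1513 CPM, against 23.0 and 67.9 CPM in the other endpoint glands and 28.9, 32.7 and 34.8 CPM in untreated ones. All 5 erythroid genes were higher at an unadjusted p under 0.05 with all libraries, against 7.65% of all genes, and 0 without endpoint library 3. Neutrophil genes had the same library at the top: S100a9 had 11.1, 2.47 and 156 CPM in endpoint and 1.37, 0.825 and 9.21 CPM in untreated glands (3.89 ± 1.52), and 5 of 12 were higher, which became 1 without endpoint library 3, 2 and 3 without untreated library 1 or 2, and 8 without endpoint library 2 or untreated library 3.

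**Figure D5:**
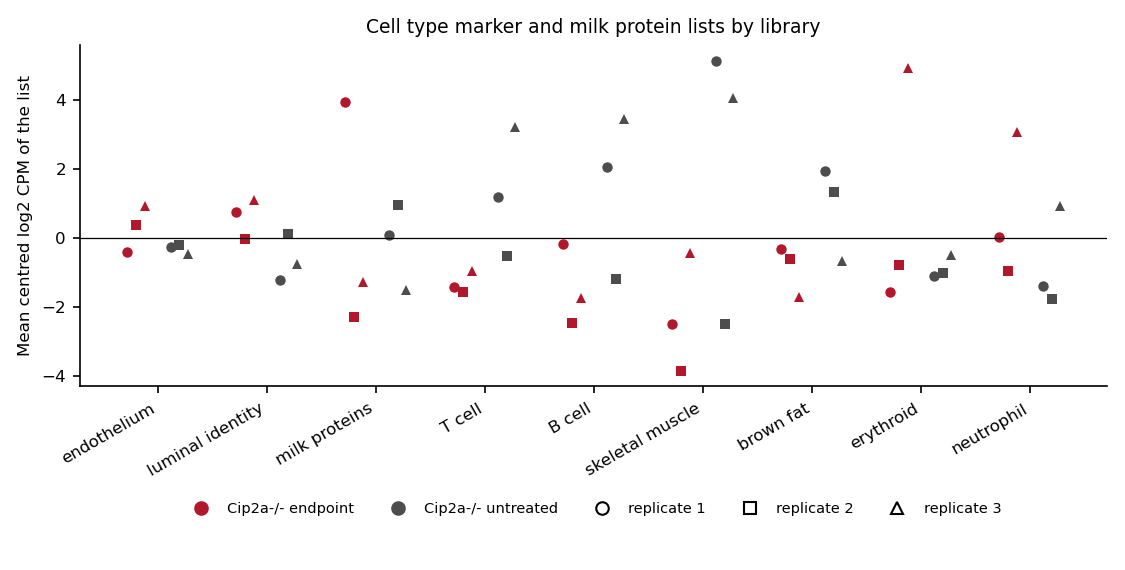
Score of 9 marker lists in each library, as the mean centred log2 CPM of the list, with endpoint libraries (red) left of untreated libraries (grey) and symbols for the replicate. Milk protein genes are high in endpoint library 1, erythroid and neutrophil genes in endpoint library 3, and T cell, B cell and muscle genes in untreated libraries 1 and 3.

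Genes of PP2A, the phosphatase that CIP2A inhibits, were near 0 as a list. Of 26 tested, 3 were higher and 1 was lower at an unadjusted p under 0.05, against 7.65% and 7% of all genes, with a median of 0.00. Without endpoint library 3 the 3 became 1. The 1 that was lower became 3 without endpoint library 1 or untreated library 3 and 2 without endpoint library 2. Strn, a regulatory subunit that scaffolds the STRIPAK complex, had 5.87, 4.19 and 2.93 CPM in endpoint and 18.4, 10.01 and 8.80 CPM in untreated glands (-1.51 ± 0.38), with no overlap. The catalytic subunit gene Ppp2cb had 66.4, 91.5 and 89.2 CPM against 58.6, 64.9 and 59.4 CPM (0.43 ± 0.16). The regulatory subunit gene Ppp2r2d had 0.46 ± 0.16, and Igbp1, which binds free catalytic subunits, had 0.41 ± 0.15.

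Against the glands taken 2 weeks after the last dose, edgeR called 0 genes (0%), and 3657 (23.6%) had an unadjusted p under 0.05. DESeq2 called 920 higher and 867 lower of 15772 genes, and limma-voom called 1. The endpoint libraries are the same ones as in the comparison with untreated glands. With endpoint library 1 left out edgeR called 356 higher and 196 lower, and without 2-week library 2 it called 1. The smallest p values were those of D0H4S114, Nid2, Gdf15, Exoc4 and Rgs3. Nid2, a basement membrane linker, had 91.4, 123.04 and 129 CPM in untreated glands, 147, 292 and 254 CPM at 2 weeks and 44.8, 47.3 and 38.8 CPM at the endpoint (-2.40 ± 0.37 over 2 weeks). D0H4S114 had 42.0, 81.3 and 48.0 CPM in untreated glands, 92.3, 70.8 and 92.1 CPM at 2 weeks and 31.6, 19.7 and 16.2 CPM at the endpoint (-1.92 ± 0.27). Exoc4, a subunit of the exocyst that docks vesicles, had 40.3, 33.4 and 33.6 CPM in untreated glands, 167, 91.8 and 63.2 CPM at 2 weeks and 25.6, 19.5 and 24.4 CPM at the endpoint (-2.21 ± 0.36). Rgs3 overlapped between the first stages, at 70.7, 70.8 and 66.8 CPM untreated and 53.7, 61.8 and 72.0 CPM at 2 weeks, and was higher in every endpoint library (1.03 ± 0.17). Of 22 collagen genes, 13 were lower and 0 higher at the endpoint than at 2 weeks at an unadjusted p under 0.05. Over all genes these shares were 11.9% and 11.7%. The collagen median was -1.16.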

How the data were processed

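RNA from whole mammary gland was sequenced as stranded polyA libraries, per the labels' protocols. The authors deposited whole-number read counts by gene symbol, per the file headers. Per the submitters' processing notes, bcl2fastq 2.17, STAR 2.5.2b and Subread 1.5.1 were used with mm10. The sources used here name no annotation or strand setting for the counting, so counts of near-identical or overlapping genes are uncertain. Total counts were 16121743 to 24586404 over all 18 libraries.

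Counts were analysed in R 4.3.3 with edgeR 4.0.16. The filter was filterByExpr with a minimum count of 10 and a minimum total of 15, libraries were scaled by TMM, and 1 quasi-likelihood model with a term for each of the 6 groups was fitted to all 18 libraries. P-values were adjusted over all 15482 genes by the Benjamini-Hochberg method and called under 0.05. CPM is after TMM scaling, and log2 CPM used a prior count of 2. The genotype difference is the endpoint effect in Cip2a-/- minus that in WT. DESeq2 1.42.0 and limma 3.58.1 were alternatives, with other scaling, filters, groups, a replicate block and each library left out. The fit was tested on simulated data.

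The genes named are Cip2a; among genes of at least 5 CPM on average, with a gene name and no overlap of the groups, those called or, failing that, the 8 with the smallest p in each direction; in each list those called, then up to 4 with the smallest p, with the first listed markers of cell types; and the 5 with the smallest p in each other contrast. Csn2, Ctgf, Egr3, Fkbp5, Fos, Hsp90aa1, Mcm5, Mcm7, Mki67, Rfc3, Tsc22d3 and Xpa, and the genes called without endpoint library 1, were named after their values were seen. Some genes that the rule names are not reported here. The members and the 52 gene lists were chosen with earlier results of these data known. Positions are from RefSeq (GRCm38), matched for 15401 genes. Leaving out single libraries in the counts of list members was added after the data were seen.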

Additional observations from a re-analysis of the deposited data

How the results depend on the processing

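The count of called genes for endpoint against untreated was 0 with RLE size factors, without the low-count filter, with limma-voom, with only the groups compared and with the replicate block, 277 with DESeq2, and 0 to 9 with 1 library left out. The genotype difference had 34 calls with DESeq2 and 0 to 1 with 1 library left out, and 0 in the other alternatives, the block included. The contrast with 2 weeks had 1787 calls with DESeq2, 1 with limma-voom, 7 with the replicate block, and 0 to 552 with 1 library left out. The cause of these differences was not tested. Same-numbered endpoint and untreated libraries deviated together with r of -0.13, -0.02 and 0.26, so the numbers were not taken as pairs. With 1 library left out, the log2 fold change lay between -1.34 (without endpoint library 1) and 4.81 for Lalba. Without endpoint library 3 it was lowest for S100a8 (-0.27, up to 2.82 otherwise) and Slc4a1 (-1.29, up to 6.16). It lay between -5.11 and 2.38 for Lor and between -4.15 and 0.42 for Krtdap, with the positive values without untreated library 3. At 16329067 to 20416505 reads a library, values under 1 CPM, such as those of Nr4a3 and Gdf15, rest on few reads.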

Other observations

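Lists outside the comparisons above also held genes of small p. Of 24 TGF-beta and BMP genes, 5 were higher and 0 lower at the endpoint at an unadjusted p under 0.05, against 7.65% and 7% of all genes. The median log2 fold change was 0.37 (0.14 to 0.42 with 1 library left out), against -0.41 in WT. The list score of the WT endpoint libraries was -0.97, 0.08 and -0.44. The BMP target Id3 had 179, 211 and 129 CPM in endpoint and 71.1, 87.5 and 89.0 CPM in untreated glands (1.07 ± 0.31, SE), and Id1 had 70.2, 108 and 65.2 CPM and 48.7, 49.6 and 25.5 CPM (0.98 ± 0.30). Neither overlapped between the groups. The ligand gene Bmp4 had 10.6, 13.8 and 24.0 CPM against 7.35, 6.27 and 12.0 CPM (0.92 ± 0.35), beside -0.79 ± 0.35 in WT (genotype difference 1.71 ± 0.49, unadjusted p = 0.00368, edgeR adjusted p = 0.49). Of 18 circadian clock genes, 2 were higher and 0 lower, near the shares over all genes, and 0 had no overlap. Per1 had 89.4, 320.3 and 454 CPM in endpoint and 124, 47.5 and 60.5 CPM in untreated glands (1.90 ± 0.67). Cry1 had 7.72, 19.5 and 37.8 CPM and 12.8, 11.1 and 11.7 CPM (0.87 ± 0.40). Endpoint library 1 lay within the untreated range for Per1 and below it for Cry1. Per1 is also a glucocorticoid target, and the sources used here do not give the hour of sampling. Of 40 nuclear genes of oxidative phosphorylation, 0 had an unadjusted p under 0.05, with a median of -0.27 in Cip2a-/- and 0.73 in WT. In WT the list score was 1.44, -0.48 and 0.49 in endpoint and 0.32, -0.17 and -0.19 in untreated glands. WT endpoint library 1 was thus the highest of these and WT endpoint library 2 the lowest.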
